A study of Mus musculus with 39 samples.

Results

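The mouse genes Hdac1, Hdac2, Hdac3 and Hdac8 encode the class I histone deacetylases, and their transcripts were followed here in oocytes and preimplantation embryos that had or had not met a deacetylase inhibitor. The members were found by gene name among the array probes and are 4 of 34797 gene names. They comprised 7 of 55681 probes, namely 3 for Hdac1, 1 for Hdac2, 1 for Hdac3 and 2 for Hdac8, and all 7 passed the detection filter that 29692 probes passed.

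The series held 39 one-colour arrays in 13 conditions of 3 arrays, each array with RNA from 100 oocytes or embryos. The embryos were of the cross B6D2F1 x ICR, made in vitro from MII oocytes of B6D2F1 females and sperm of ICR males. ICR entered only with the sperm, so the oocytes were not of the cross. Untreated material covered GV (germinal vesicle) and MII (metaphase II) oocytes, embryos of 1, 2, 4 and 8 cells, morulae and blastocysts. Treated zygotes had spent 6 h, starting 4 h post-insemination, in medium with 10 µM T247, an inhibitor of HDAC3, or 10 µM MGCD0103, an inhibitor of HDAC1, HDAC2 and HDAC3, and were then returned to plain medium. They were collected at 12 h (1-cell), 24 h (2-cell) and, for T247 alone, 48 h (4-cell). Every reading thus came after the inhibitor had been withdrawn. The series held no 4-cell group for MGCD0103. According to the paper, embryos given this inhibitor were unable to reach that stage, and T247 may delay development. Treated and control embryos were matched by hours post-insemination, and the part of such a delay in the differences below was not tested. The sources used here name no vehicle for the controls. The comparison asked whether embryos that had met an inhibitor of these enzymes carried other amounts of the transcripts that encode them. A pool of whole embryos gives 1 value, in which fewer cells with a transcript and less transcript per cell cannot be told apart.

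Class I deacetylases are zinc-dependent enzymes that remove acetyl groups from lysines of histones and of other proteins. HDAC1 and HDAC2 are close paralogs and work as the catalytic subunits of the Sin3, NuRD, CoREST and MiDAC complexes, HDAC3 works in the NCoR/SMRT complex, and HDAC8 acts outside these complexes and deacetylates the cohesin subunit SMC3. In the mouse embryo HDAC1 is known as a major deacetylase before implantation, and its gene is among those transcribed when the embryonic genome becomes active.

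The probes were 60-base oligonucleotides. The 3 Hdac1 probes lay on chromosome 4 (mm9, minus strand) and started at positions 1885, 1732 and 1543 of the transcript given by the files, and they are called probe 1885, probe 1732 and probe 1543 below. Probe 1885 matched 129193374-129193433, probe 1732 matched 129193527-129193586 and probe 1543 matched 129193716-129193775. The sequences of the Hdac2 probe and both Hdac8 probes are shown because they fix which stretch of the message was read. Each is open in at least 1 reading frame. The Hdac2 probe (plus strand, chr10:36713455-36713589, transcript position 888) covers 135 bases of genome with its 60 bases and so crosses an intron. The Hdac8 probe at transcript position 1043 (minus strand, chrX:99503070-99597969) likewise spans 94900 bases, and that at position 108 (minus strand) matched chrX:99700320-99700379.

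Hdac2, position 888: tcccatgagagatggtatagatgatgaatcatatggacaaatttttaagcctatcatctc
Hdac8, position 1043: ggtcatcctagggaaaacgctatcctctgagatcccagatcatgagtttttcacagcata
Hdac8, position 108: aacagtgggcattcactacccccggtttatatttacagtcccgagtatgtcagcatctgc

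Levels are normalized log2 signals, on which a difference (LFC) of 1 is a 2-fold change, and a probe was called when its LFC was at least 1 in size with an adjusted p below 0.05 by limma. Signals of different probes are not comparable with each other. Of the spots on an array 62.4 to 77.3% had a positive and significant signal, 44.4 to 58.3% were well above background and 0 were saturated. The 3 untreated replicates of all stages lay on slides 1, 2 and 3, with the replicate number as the slide number. T247 arrays lay on slides 4 and 5 and MGCD0103 arrays on slide 6, so that slide and treatment cannot be told apart in any comparison with the control. The control 2-cell replicate 1 stood apart from its group, with a standard deviation of its deviations from the group mean of 0.7 over the tested probes against at most 0.44 on any other array, and the value without it is given beside the member calls that changed when it was left out. The stages matched their markers. All 7 oocyte markers on the array were well above background from GV to 2-cell and their summed signal fell from 1140000–1190000 in GV oocytes to 372–606 in blastocysts, while the sum of 7 morula and blastocyst markers reached 476000–597000 in blastocysts. Of 8 cumulus cell markers 1 to 4 were well above background on all 3 arrays of a condition, with summed signals of 7140 to 26600. Foxl2 was among them in every condition and held 98.7 to 99.9% of that sum, and Ptx3, Tnfaip6, Amh and Lhcgr were among them in none.

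**Figure D1:**
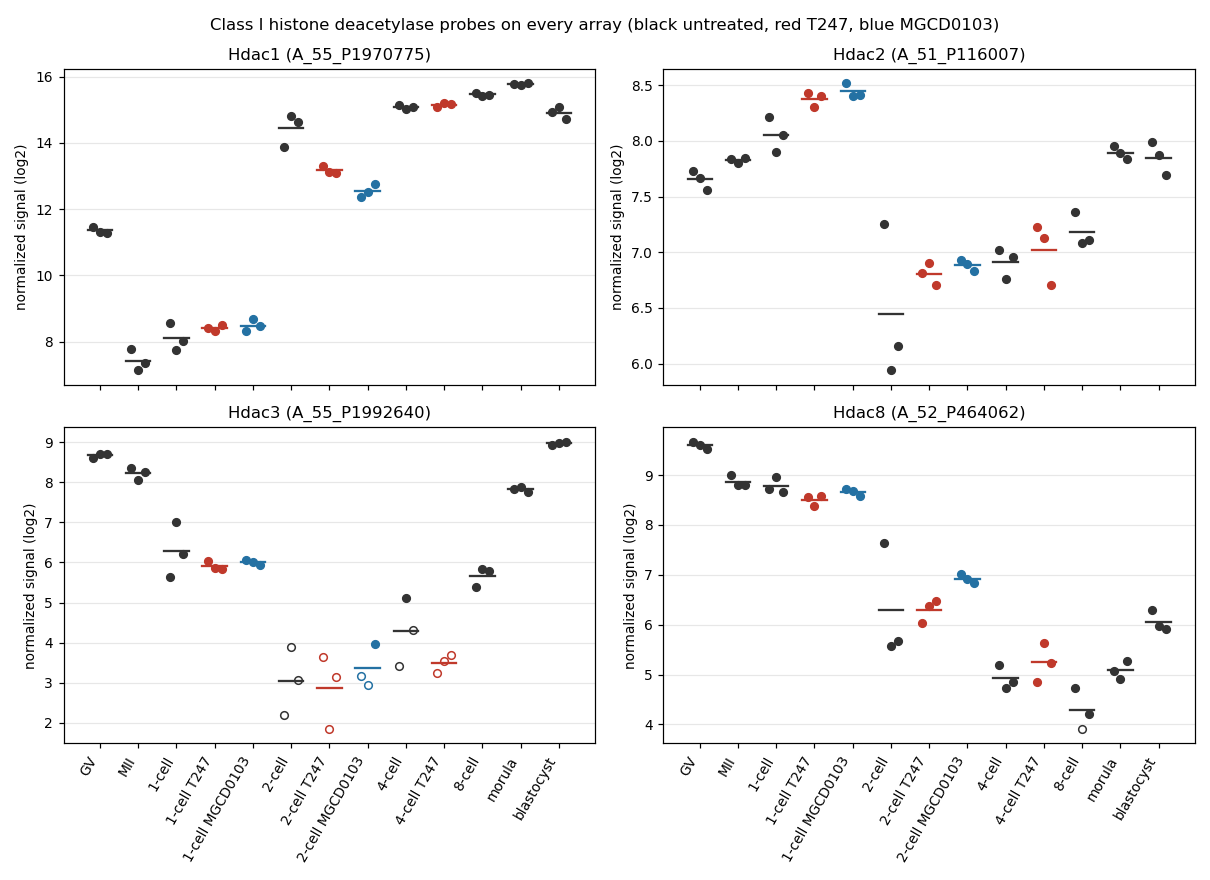
Normalized log2 signal of the brightest probe of each gene (Hdac1 probe 1885, Hdac2, Hdac3 and Hdac8 probe 1043, vertical axes) in the 13 conditions (horizontal axis). Each array is 1 point, filled where the spot was well above background and open where it was not. A bar marks the mean of 3 arrays. Hdac1 climbs between the 1-cell and 2-cell stages while Hdac2, Hdac3 and Hdac8 drop, and the Hdac3 points at the 2-cell stage are nearly all open.

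The transcripts of the 4 genes followed different courses through untreated development. As reported, Hdac1 was lowest in MII oocytes and highest in morulae. Hdac8 was highest in GV oocytes and lowest in 8-cell embryos or morulae, depending on the probe. These extremes depended in part on the scaling. With each array scaled to its 75th percentile all 3 Hdac1 probes were highest at 8-cell. With quantile normalization probe 1885 was highest in 2-cell controls. Under both, probe 1732 was lowest in 1-cell controls and Hdac8 probe 1043 was highest in MII oocytes. Hdac2 moved least of the 3 genes measured at every stage, by 3.03-fold between its highest untreated mean (1-cell) and its lowest (2-cell), against 331, 129 and 59.2-fold for Hdac1 probes 1885, 1732 and 1543 and 39.7 and 40.8-fold for Hdac8 probes 1043 and 108. The extremes of Hdac2 depended on the scaling too. Under both alternatives named above its highest untreated mean was in MII oocytes, and with the 75th percentile its lowest was in GV oocytes.

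Hdac1 fell while oocytes matured and rose at the 2-cell stage. The log2 signal of probe 1885 was 11.47, 11.31 and 11.28 in GV oocytes, 7.78, 7.13 and 7.35 in MII oocytes, 8.55, 7.75 and 8.03 in 1-cell and 13.89, 14.8 and 14.64 in 2-cell embryos. No MII value reached a GV value, and every 2-cell value stood above every earlier one. From GV to MII the LFC was −3.93 (15.3-fold, adjusted p = 6.47e-18, limma), −2.64 and −1.59 for probes 1885, 1732 and 1543. The median probe fell by 0.77 in the same step, in which 42.7% of probes were called. This step depended on the scaling, since with the 75th percentile the median probe was 0.69 higher in MII oocytes, probe 1543 differed by −0.2 and was not called, and Hdac2, at 0.18 as reported, was called higher by 1.61. From 1-cell to 2-cell the LFC of probe 1885 was 6.33 (SE 0.18, 80.5-fold, adjusted p = 3.75e-22, limma), and it was 5.34, 7.05 and 6.61 within slides 1, 2 and 3. The other Hdac1 probes rose 38.9-fold (LFC 5.28) and 17.9-fold (LFC 4.16), in a step in which 46.5% of all probes were called and 17.6% were called higher.

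After the 2-cell stage Hdac1 stayed high. From 2-cell to 4-cell probe 1732 rose by 1.15 (adjusted p = 3.1e-06, limma) and probes 1885 and 1543 differed by 0.63 and 0.72, short of a call. The value of probe 1732 was 0.9 without control 2-cell replicate 1 and 0.77 with quantile normalization, in both cases no longer called. Probe 1885 read 15.08 ± 0.05 at 4-cell, 15.47 ± 0.05 at 8-cell, 15.79 ± 0.02 in morulae and 14.91 ± 0.18 in blastocysts (SD, n = 3 each). The blastocyst value was below that of the morula by −0.88 (adjusted p = 0.000247, limma) where 22.7% of all probes were called, less than the LFC of 1 that a call required. In the order of the means the morula stood above the 8-cell stage without overlap of arrays, whereas the 4-cell and blastocyst arrays overlapped. That order depended on the processing. Over the alternatives the LFC of probe 1885 ranged from −0.44 to 0.37 from 8-cell to morula. From 2-cell to 4-cell it ranged from −0.31 to 0.81.

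Hdac2, the paralog of Hdac1, took the opposite step at the 2-cell stage. Its signal was 8.21, 7.9 and 8.05 in 1-cell and 7.25, 5.94 and 6.16 in 2-cell embryos, with no overlap. The LFC was −1.6 (3.03-fold lower, adjusted p = 1.3e-08, limma), and within slides 1, 2 and 3 it was −0.96, −1.96 and −1.89. Later it read 6.91 ± 0.14 at 4-cell, 7.18 ± 0.15 at 8-cell, 7.89 ± 0.06 in morulae and 7.85 ± 0.15 in blastocysts (SD, n = 3 each). The step from 8-cell to morula was 0.71 (adjusted p = 0.00205, limma), short of a call. The probe is printed in 10 spots on each array, and these differed by a median SD of 0.0834, well below the steps described.

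Hdac8 was carried by the oocyte and fell in the same interval. Probe 1043 read 9.67, 9.61 and 9.53 in GV oocytes, 8.72, 8.96 and 8.66 in 1-cell embryos and 7.63, 5.57 and 5.68 in 2-cell embryos. Replicate 1 was the high 2-cell value, and its within-slide difference of −1.08 was smaller than the −3.39 and −2.98 of slides 2 and 3. The LFC from 1-cell to 2-cell was −2.48 (5.6-fold lower) for probe 1043 and −2.59 (6.03-fold lower) for probe 108. From 2-cell to 4-cell, a step in which 54.9% of all probes were called, probe 1043 fell by 1.36 (adjusted p = 0.00023, limma), and the difference shrank to −0.69 and lost its call without control 2-cell replicate 1. Probe 108 fell by 1.73 from GV to MII and passed the test (adjusted p = 0.000287, limma), while probe 1043 differed by −0.73 (adjusted p = 0.0407) and was not called, and with the 75th percentile scaling probe 108 differed by −0.27 and lost its call. In blastocysts probe 108 was 1.64 above morulae (adjusted p = 0.00089), but its 3 morula values, 2.42, 4.42 and 5.24, were widely spread, 1 of them was not well above background, and the highest exceeded the lowest blastocyst value of 5.21. In the authors' table the difference was 0.79 and without morula replicate 1 it was 0.84, neither called. Probe 1043 differed by 0.98 there, just short of a call.

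Hdac3 disappeared into the background at the 2-cell stage and returned later. Its probe matched bases 38096655-38096714 of chromosome 18 (mm9, minus strand) and started at position 1915 of the transcript. It read 8.6, 8.71 and 8.71 in GV oocytes, 8.35, 8.06 and 8.27 in MII oocytes and 5.64, 7.01 and 6.21 in 1-cell embryos. At 2-cell none of the 3 control arrays was well above background, and at 4-cell 1 of 3 was. From MII to 1-cell, where 19.8% of all probes were called, it fell by 1.94 (3.84-fold, adjusted p = 0.000169, limma) and no other class I probe was called, and from 1-cell to 2-cell it fell at least 4.64-fold (adjusted p = 2.25e-08). As the probe was not well above background on any 2-cell control array, the fold change of this last step is given as a bound. Each 2-cell array entered the bound with the larger of its lowest signal well above background and the probe's own signal. The bound holds for the reported processing only. Over the 15 alternatives the fitted LFC of Hdac3 from 1-cell to 2-cell ranged from −3.29 to −1.02 and was called in all 15. From 2-cell to 4-cell, with 0 and 1 of 3 arrays well above background, the arrays overlapped. The fitted LFC of 1.23 (adjusted p = 0.00633) was 0.8 without control 2-cell replicate 1, 0.82 without control 4-cell replicate 2 and 0.32 with normexp background correction, no longer called in any of these. The steps from 4-cell to 8-cell (LFC 1.38, with the 4-cell level measured on 1 of 3 arrays, and 0.95 and not called without control 4-cell replicate 1), to the morula (LFC 2.16, 4.46-fold, adjusted p = 2.76e-05) and to the blastocyst (LFC 1.16, adjusted p = 0.0177) were called, in steps that 12.7%, 31.3% and 22.7% of all probes passed. The blastocyst mean of 8.98 was the highest of the 13 conditions, whereas with the 75th percentile scaling the MII mean was the highest.

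The 2 inhibitors left the 7 probes uncalled at the 1-cell stage. For Hdac1 probe 1885 the signal was 8.42, 8.32 and 8.49 with T247 and 8.31, 8.68 and 8.46 with MGCD0103, and both sets overlapped the control. The LFC was 0.3 with T247 (95% confidence interval −0.08 to 0.67) and 0.37 with MGCD0103 (−0.01 to 0.75). Probe 1543 differed by −0.48 with T247 (adjusted p = 0.0265, limma), under the LFC required, and in the other direction from probe 1732 at 0.46. Of all probes 8.38% were called with T247 and 5.23% with MGCD0103. Among the 7 class I probes, 2 had an unadjusted p under 0.05 with each inhibitor, a count with no share of all probes at that p to set beside it. Hdac2 read 8.43, 8.3 and 8.4 with T247 and 8.52, 8.4 and 8.41 with MGCD0103, above all 3 controls, by 0.33 (adjusted p = 0.245) and 0.39 (adjusted p = 0.188). The intervals of Hdac3 reached from −1.18 to 0.43 with T247 and −1.09 to 0.52 with MGCD0103, and those of Hdac8 probe 1043 from −0.9 to 0.35 and −0.74 to 0.52.

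At the 2-cell stage Hdac1 was lower with each inhibitor on all 3 of its probes. Probe 1885 read 13.29, 13.12 and 13.1 with T247 and 12.37, 12.51 and 12.77 with MGCD0103, all below the lowest control of 13.89. The LFC was −1.27 with T247 (SE 0.18, 2.42-fold lower, adjusted p = 1.28e-06, limma) and −1.9 with MGCD0103 (3.72-fold lower, adjusted p = 1.07e-09). The treated embryos thus stood between the 1-cell and the 2-cell control.

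The dimmer Hdac1 probes moved further. Probe 1732 read 10.63, 10.36 and 10.38 with T247 and 9.82, 9.94 and 10 with MGCD0103 against 11.42, 12.28 and 12.07 in the control, an LFC of −1.47 and −2.01 (adjusted p = 1.68e-07 and 4.92e-10, limma). Probe 1543 read 8.52, 8.36 and 8.5 with T247 and 7.89, 8.11 and 8.12 with MGCD0103 against 10.17, 10.81 and 10.42. Its LFC was −2.01 (4.02-fold, adjusted p = 1.62e-11) and −2.42 (5.37-fold, adjusted p = 2.4e-13). On each of the 3 probes the highest treated value lay below the lowest control value, and each probe kept its call in both comparisons when any 1 of the 6 arrays was left out. Probes of 1 transcript are not replicates of a condition, and the ratio between them is a property of each probe as well as of the message.

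Among all tested probes 23.9% were called with T247 at the 2-cell stage, 15.7% as lower, and 26.1% with MGCD0103, 15% as lower. The 3 of 7 class I probes called lower in each comparison all belong to Hdac1. The scaling between arrays set part of the T247 split. With smooth quantile normalization 2447 probes were higher and 4652 lower and the median of all probes was −0.24, whereas with each array scaled to its 75th percentile 4817 were higher and 2001 lower and the median was 0.2. Under those 2 settings the LFC of probe 1885 with T247 was −1.27 and −0.82, and with quantile normalization −0.94, so that the T247 call of this probe was lost by its size while the direction held. Relative to the median of all probes it lay between −1.15 and −0.9 over the 5 scalings and background corrections. With MGCD0103 the same range was −1.99 to −1.93, and probe 1543 lay between −1.84 and −1.71 with T247 and between −2.64 and −2.22 with MGCD0103.

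**Figure D2:**
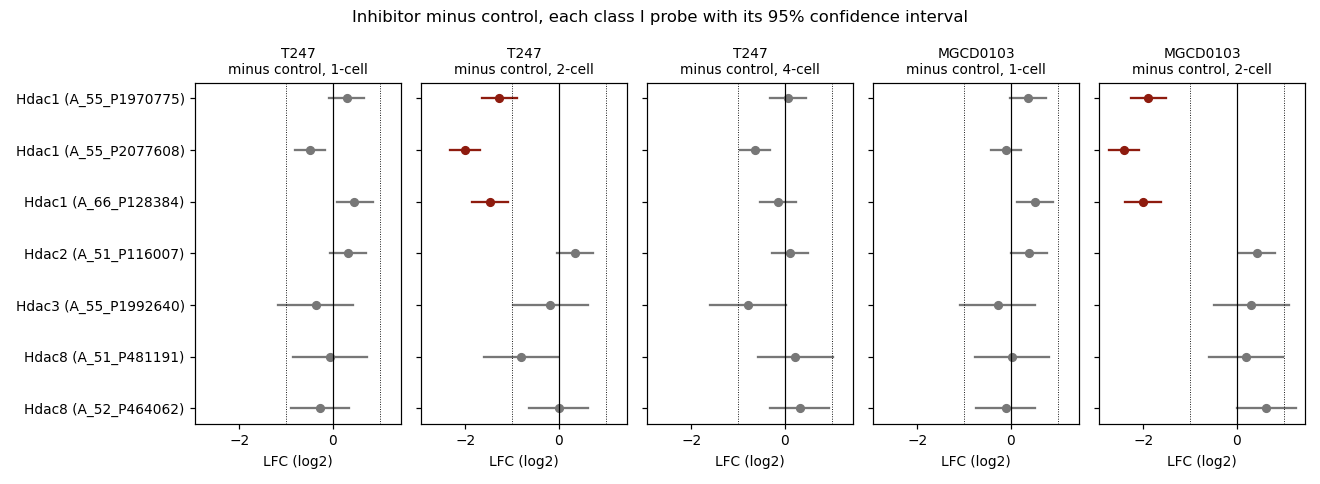
Difference between treated and control embryos (LFC, horizontal axis) with its 95% confidence interval for each of the 7 class I probes (vertical axis), 1 panel per inhibitor and stage with 3 arrays a group, dark red where called and dotted lines at −1 and 1. The 3 Hdac1 probes lie left of −1 at the 2-cell stage with both inhibitors, from −1.27 to −2.42, and no other probe is called.

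Hdac2, Hdac3 and Hdac8 were not called at the 2-cell stage. Hdac2 read 6.81, 6.9 and 6.71 with T247 and 6.93, 6.89 and 6.83 with MGCD0103, inside the wide control range of 5.94 to 7.25. Its LFC was 0.35 with T247 (interval −0.04 to 0.74, adjusted p = 0.128, limma) and 0.43 with MGCD0103 (0.04 to 0.82, adjusted p = 0.0594). Without control replicate 1 the 2 values were 0.75 and 0.83, under the LFC required. Hdac8 probe 1043 read 6.03, 6.37 and 6.47 with T247, an LFC of 0 (interval −0.63 to 0.62), and 7.02, 6.92 and 6.83 with MGCD0103, an LFC of 0.63 (adjusted p = 0.0893). Without control replicate 1, whose value of 7.63 lay above all treated ones, the MGCD0103 difference was 1.3 and was called, and the T247 difference was 0.67 (adjusted p = 0.00513), under the LFC required. Probe 108 of the same gene differed by −0.81 with T247 (adjusted p = 0.0859) and by 0.19 with MGCD0103, so that the probes of Hdac8 gave unequal values. Without control replicate 1 its 2 differences were −0.38 and 0.62, and without control replicate 3 the T247 difference was −1.05 and was called. Hdac3 was not well above background in the 2-cell controls or with T247 and was so on 1 of 3 arrays with MGCD0103, which leaves no fold change to report.

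At the 4-cell stage the T247 embryos carried Hdac1 at the control level on probe 1885. The signals were 15.07, 15.2 and 15.16 with T247 and 15.13, 15.02 and 15.09 in the control, an LFC of 0.07 (interval −0.31 to 0.45). Probe 1732 differed by −0.15 (interval −0.54 to 0.23). Probe 1543 remained lower, at 10.49, 10.62 and 10.55 against 11.15, 11.15 and 11.25, an LFC of −0.63 (adjusted p = 0.00169, limma) without overlap but short of a call. Thus limma called 0 of 7 class I probes, where 17.6% of all probes were called. An unadjusted p under 0.05 was found for 1 class I probe, with no share of all probes at that p to set beside it. Hdac3 read 3.25, 3.55 and 3.69 with T247, with none of these arrays well above background, and 3.42, 5.12 and 4.32 in the control, with 1 of 3 well above background, which leaves no fold change to report (adjusted p = 0.107, limma). Hdac2 and Hdac8 probe 1043 differed by 0.11 and 0.32, with intervals of −0.28 to 0.5 and −0.31 to 0.95.

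The change of the inhibitor effect between stages was tested directly and called at an adjusted p below 0.05, whatever its size. The T247 effect on Hdac1 probe 1885 changed by −1.57 from 1-cell to 2-cell (adjusted p = 2.52e-05, limma) and by 1.34 from 2-cell to 4-cell (adjusted p = 0.000173). The MGCD0103 effect changed by −2.26 from 1-cell to 2-cell (adjusted p = 6.54e-08). Probes 1732 and 1543 passed all 3 of these tests too, and no probe of Hdac2, Hdac3 or Hdac8 passed one with all arrays. Of all probes 28.2%, 36.4% and 28.1% passed the 3 tests, with 24.4% lower in the first, 27.8% higher in the second and 21.7% lower in the third. With control 2-cell replicate 1 left out, the brightest Hdac8 probe passed both 1-cell to 2-cell tests. The T247 effect on it then changed by 0.94 and the MGCD0103 effect by 1.41 (adjusted p = 0.00487 and 5.88e-05, limma). Hdac2 then passed all 3 tests, and its T247 effect changed by −0.64 from 2-cell to 4-cell (adjusted p = 0.00218, limma). Its changes from 1-cell to 2-cell are given below. An offset of a whole slide that is equal at all signal levels cancels in the 1-cell to 2-cell tests, because all arrays of an inhibitor at those stages shared 1 slide. Such an offset does not fully cancel for 4-cell embryos, since T247 replicates 2 and 3 of that stage lay on slide 5. A slide difference that varies with the signal need not cancel in any of these tests, and the part of the slide was not tested.

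Seen along development, the rise of Hdac1 from 1-cell to 2-cell was smaller after either inhibitor. On probe 1885 it was 80.5-fold in untreated embryos, 27.1-fold (LFC 4.76) with T247 and 16.8-fold (LFC 4.07) with MGCD0103. On probe 1543 the LFC was 4.16, 2.63 and 1.84 in the same order. The parallel fall of Hdac2 was −1.6, −1.58 and −1.56. Without control 2-cell replicate 1 it was −2 in untreated embryos, and the effects of T247 and MGCD0103 on Hdac2 then changed between the stages by 0.43 and 0.44 (adjusted p = 0.0439 and 0.0327, limma).

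**Figure D3:**
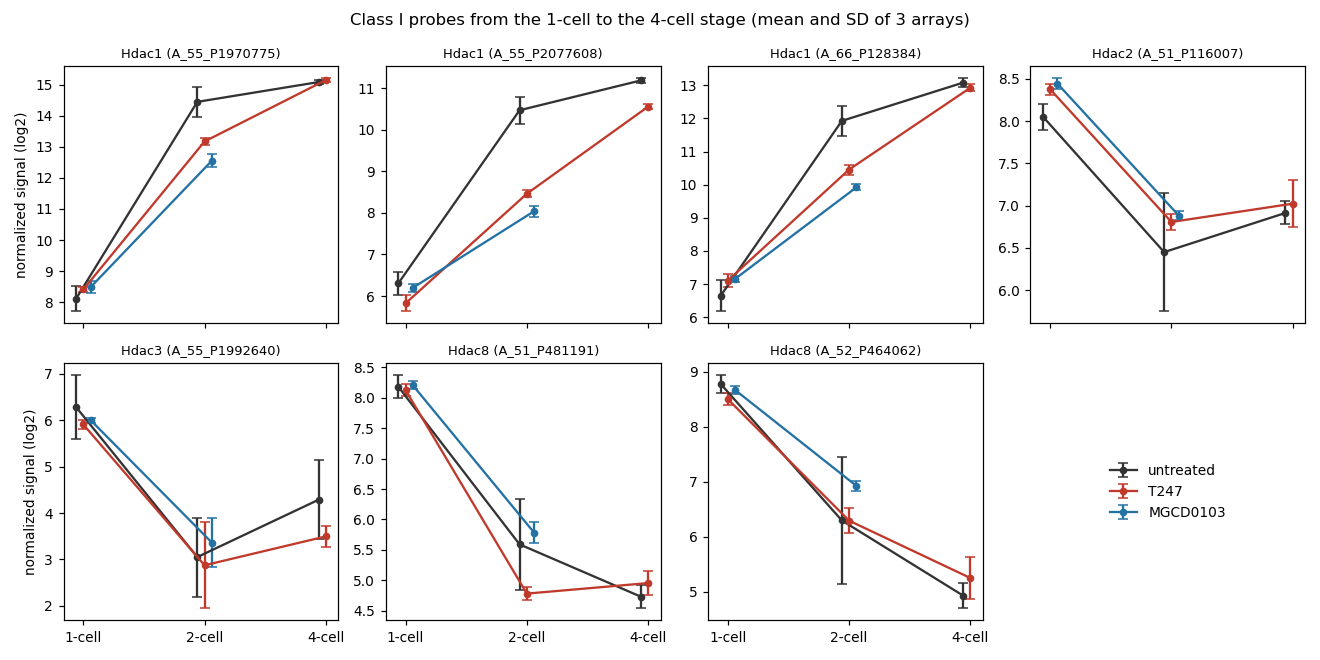
Mean normalized log2 signal with SD of 3 arrays (vertical axis) of the class I probes by stage from 1-cell to 4-cell (horizontal axis), in control, T247 and MGCD0103 embryos. The Hdac1 lines of treated embryos rise less steeply to the 2-cell stage than the control, and at 4-cell the T247 and control values of probe 1885 are 15.15 and 15.08.

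The 2 inhibitors were compared at the same dose, exposure and stage over 14 pairs of values, 7 probes at 2 stages, with p-values adjusted over all tested probes. None of the 14 was called by limma, where 0.148% of all probes were called at 1-cell and 4.62% at 2-cell. At an unadjusted p under 0.05 there was 1 class I probe at 1-cell and 5 at 2-cell, the latter being all probes of Hdac1 and Hdac8. No share of all probes at that unadjusted p is given, for these or for the earlier counts of this kind. At 2-cell Hdac1 was lower with MGCD0103 than with T247 by −0.62 on probe 1885 (interval −1 to −0.24, adjusted p = 0.014, limma), −0.54 on probe 1732 (adjusted p = 0.0346) and −0.42 on probe 1543 (adjusted p = 0.048). The arrays of the 2 inhibitors did not overlap on any of them, although these differences were under the LFC required and the 2 inhibitors never shared a slide. Hdac8 probe 108 was higher with MGCD0103 by 1 (interval 0.21 to 1.8, adjusted p = 0.0555) and probe 1043 by 0.63 (0.01 to 1.26, adjusted p = 0.128). Hdac2 differed by 0.08, with an interval of −0.31 to 0.47, and at 1-cell the intervals of all 7 probes lay between −0.71 and 0.9.

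The probes of 1 gene gave like courses over the 13 condition means, with Pearson correlations of 0.972 to 0.991 between Hdac1 probes and 0.951 between those of Hdac8. Between genes, probe 1885 of Hdac1 and probe 1043 of Hdac8 ran against each other (r = −0.9). The condition means come from the same libraries and the values are given as a description. The genes with the most similar course to Hdac1 were Wrap53 (r = 0.9926), Oxsr1 (0.9904) and Agrp (0.9891), and 271 genes reached 0.95. For Hdac8 the first was Ezh1 (0.9931), which encodes a histone H3 methyltransferase, followed by an unnamed lincRNA on chromosome 17 (0.9917) and 2700049A03Rik (0.9915), with 620 genes at 0.95 or more. The course of Hdac2 was shared by few, with 2 genes at 0.95 or more, among them Zfp426 (0.9589), and with Th1l at 0.9494. Hdac3, whose values at 2-cell and 4-cell were near background, stood next to Mpg (0.9885), Gpr108 (0.988) and Fgfr1 (0.987), with 44 genes at 0.95 or more.

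The genes that encode the partners of these enzymes were read from lists for each complex, by the brightest probe of each gene, at the 2-cell stage. With T247, 4 of 15 Sin3, 5 of 13 NuRD, 1 of 9 CoREST, 1 of 5 NCoR/SMRT and 2 of 3 tested MiDAC genes were called lower and 0 of them higher. Of all probes 15.7% were called lower. The list medians were −0.62, −0.79, −0.64, −0.53 and −1.11 beside −0.24 for all probes. With MGCD0103 the counts were 4, 3, 1, 1 and 0 lower, with 1 Sin3 and 1 NuRD gene higher, and medians of −0.05, 0.08, −0.33, 0.09 and −0.22 beside 0.04, where 15% of all probes were called lower. The T247 counts leaned on the scaling, since with the 75th percentile they were 2 of 15 Sin3, 3 of 13 NuRD and 0 of the CoREST, NCoR/SMRT and MiDAC genes, with 1 NuRD gene higher.

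Among the subunits of HDAC1 and HDAC2 complexes called lower by both inhibitors, Mta2 and Cdk2ap1 of NuRD changed most. Mta2, which encodes a scaffold on which HDAC1 and HDAC2 dock, rose by 5.53 from 1-cell to 2-cell in the control and was lower by −3.53 with T247 (adjusted p = 6.43e-14, limma) and −4.38 with MGCD0103 (adjusted p = 3.45e-16). Cdk2ap1 rose by 3.44 in the control and was lower by −2.26 and −2.91. Rbbp4, which encodes a histone-binding subunit of both Sin3 and NuRD, was lower by −1.63 and −1.45. All 3 genes kept their calls with both inhibitors under 6 settings, the 5 scalings and background corrections and the fit without control 2-cell replicate 1.

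Another 4 genes of these lists were called lower with both inhibitors. In the Sin3 list Arid4a differed by −1.14 with T247 and −1.15 with MGCD0103 and Ing1 by −1.01 and −1.53. Rcor2, a CoREST scaffold, was lower by −1.2 and −1.85, and Tbl1x, a subunit of the NCoR/SMRT complex of HDAC3, by −1.43 and −1.91. Each of these 4 genes lost its T247 call with the 75th percentile scaling, and Arid4a its MGCD0103 call too. Suds3 (−1.47), Mbd2 (−1.1), Mbd3 (−1.15), Dnttip1 (−1.11) and Trerf1, which was well above background on 1 of 6 arrays, were called lower with T247 alone, and Arid4b (−1.21) was called lower and Sin3b (1.22) and Chd5 (1.07) higher with MGCD0103 alone. Set directly against each other at this stage, the inhibitors gave no called difference for any of these genes. Rbbp7, of the Sin3 and NuRD lists and not named above, was called at 1.12 (adjusted p = 2.24e-06, limma), MGCD0103 minus T247. Sin3b differed by 0.78 (adjusted p = 0.00524, limma) and Arid4b by −0.76 (adjusted p = 0.037), and Trerf1 by 1.28 (adjusted p = 0.096), MGCD0103 minus T247.

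**Figure D4:**
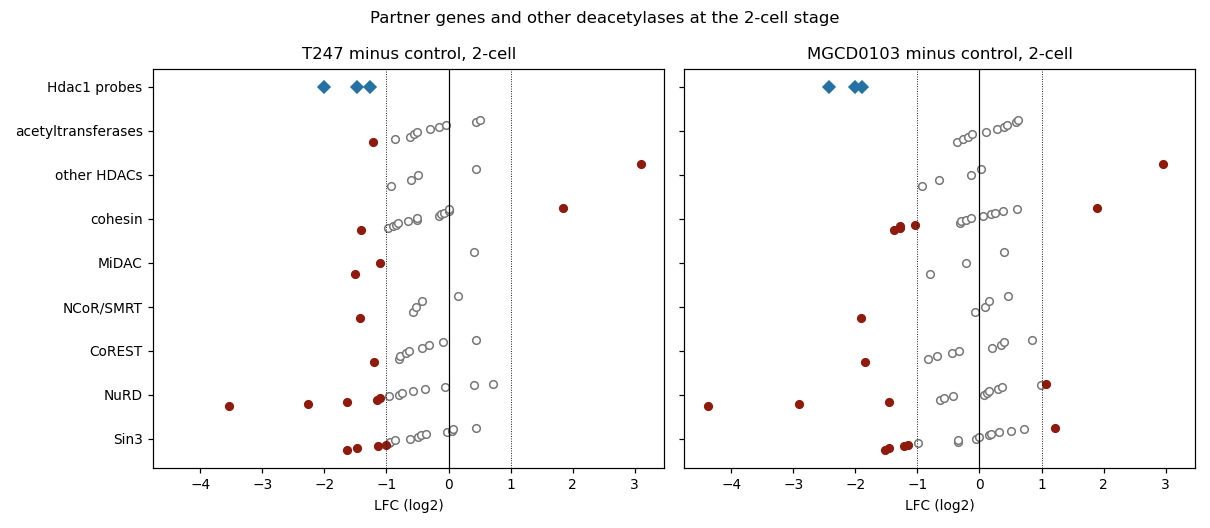
Difference between treated and control 2-cell embryos (LFC, horizontal axis) for each gene of the partner lists (rows), with T247 and with MGCD0103 in 1 panel each, filled red where called and open where not, and blue diamonds for the 3 Hdac1 probes. Mta2 of NuRD lies farthest to the left in both panels, at −3.53 and −4.38, and Hdac7 farthest to the right among other HDACs, at 3.1 and 2.96.

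Cohesin, whose subunit SMC3 is the known substrate of HDAC8, moved in both directions. Of 14 tested genes 1 was called lower and 1 higher with T247 and 4 lower and 1 higher with MGCD0103, with medians of −0.51 and −0.17 beside −0.24 and 0.04 for all probes, of which 15.7% and 15% were called lower. Without control 2-cell replicate 1 the count lower with T247 was 3. Both inhibitors had Pds5a, a regulator of cohesin on chromatin, lower (−1.41 and −1.28) and Rec8, the meiotic kleisin, higher (1.84 and 1.89). Pds5a lost its T247 call with the 75th percentile scaling (−0.96). Smc3 itself differed by −0.97 with T247, short of a call, and was called lower with MGCD0103 (−1.38, adjusted p = 2.82e-08, limma). In untreated embryos it fell by 1.21 from 1-cell to 2-cell and rose by 2.77 from 2-cell to 4-cell.

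Of the 5 tested deacetylases outside class I, only Hdac7, a class IIa enzyme, was called at the 2-cell stage, and it was higher with both inhibitors. The share called among all probes was 23.9% with T247 and 26.1% with MGCD0103. Hdac7 read 4.67 to 5.48 in the control, 7.9 to 8.26 with T247 and 7.91 to 8.05 with MGCD0103, an LFC of 3.1 and 2.96. At the 1-cell stage, where no class I probe was called, it was already higher by 2.66 and 2.22. Of the 5 deacetylases 2 were called higher at that stage with T247 and 1 with MGCD0103. The share called among all probes was 8.38% and 5.23% there. At the 4-cell stage Hdac7 was higher by 1.65 with T247. Its 2-cell calls held under the same 6 settings. Without control 2-cell replicate 1, 1 of the 5 deacetylases was also called lower with T247 and 1 with MGCD0103. Of 10 tested lysine acetyltransferases 1 was called lower with T247 (Kat8, −1.21) and 0 with MGCD0103, beside 15.7% and 15% of all probes.

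Markers of other stages moved beside these results. The sum of the 7 morula and blastocyst markers was 2270–2870 in control 2-cell embryos, 5570–6520 with T247 and 6120–8090 with MGCD0103, against 3920–6050 in 1-cell controls. Of 5 tested markers of this list 3 were called higher with T247, and with MGCD0103 4 were called higher and 1 lower. Among all 29692 tested probes 2447 were called higher with T247, and 3300 higher and 4442 lower with MGCD0103. Krt8 rose by 1.64 and 1.72 and Gata3 by 1.07 and 1.56, and Nanog differed by −0.94 with T247 and fell by 1.05 with MGCD0103. The summed oocyte markers were 170000–195000 in 2-cell controls, 128000–146000 with T247 and 168000–205000 with MGCD0103, and the genome activation markers of the 2-cell stage were 70900–108000, 68200–81500 and 67200–76600 against 1310–1750 in 1-cell controls. Their part in the difference of Hdac1 was not tested.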

How the data were processed

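Cy3-labelled cRNA was made with a kit that primes on poly(A), so that the values read polyadenylated transcript. The authors hybridized it to Agilent mouse arrays and deposited, per array, spot intensity values that Feature Extraction had background-subtracted, a surrogate standing in for low signals, and that were not normalized between arrays. The submitters' notes name version 9.5.1.1 of that software and the file headers 10.7.1.1. The authors' value table holds deposited log2 values, imputed and smooth quantile normalized, and served as an alternative only; it lacks the Hdac3 probe. The 3 arrays of a condition were biological replicates, and their number limits the precision.

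Outlier-flagged spots were left out, the spots of a probe were averaged and the log2 intensity was smooth quantile normalized over 13 conditions with code written for this work. Each condition had to hold a positive and significant spot on 1 array or more, and the 29692 probes that met this entered 1 model of all 39 arrays (limma 3.58.1, R 4.3.3), with Benjamini-Hochberg adjustment over all of them. No spot was treated as missing or imputed in the reported fit. On simulated data for T247 at the 2-cell stage over 29692 probes, 76 of 100 probes changed by 1.5 on the log2 scale, 93 of 100 changed by 2.5 and 7 of 29492 unchanged probes were called. The simulated noise was independent between arrays, with the same spread of a probe in all conditions, no slide effect and no deviating array. These counts therefore check the code and do not give the rate of false calls in the measured data.

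The members, partner lists and markers were chosen with earlier results of these data known. The text names all probes of the 4 genes, partner genes called in the same direction by both inhibitors at 2-cell or with the largest changes per list, and the 3 genes most like each member (over probes whose condition means spanned at least 1), of which 1 is not reported here. The remaining partner genes that are named, among them Hdac7 at 1-cell and 4-cell and the markers, were chosen after their values were seen. Alternatives covered scaling, background correction, detection filters, surrogate values, arrays in the fit, moderation, array weights, slide, replicate block and leaving out each array. Hdac9, Hdac11, Kat2b and Zfp541 did not pass the filter.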

Additional observations from a re-analysis of the deposited data

Results flagged for a closer look

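The effect of each inhibitor on Hdac1 differed between stages by a test of the difference itself (limma, interaction contrast). For probe 1885 the T247 effect changed by −1.57 on the log2 scale from 1-cell to 2-cell, and for probes 1543 and 1732 by −1.53 and −1.93 (adjusted p = 2.52e-05, 3.35e-06 and 1.64e-06). From 2-cell to 4-cell the T247 effect changed back by 1.34, 1.38 and 1.32 (adjusted p = 0.000173, 1.57e-05 and 0.000273), and the MGCD0103 effect changed by −2.26, −2.32 and −2.52 from 1-cell to 2-cell (adjusted p = 6.54e-08, 2.06e-09 and 1.37e-08). With each array of the stages compared left out in turn, the 3 values of probe 1885 stayed within −1.85 to −1.39, 1.16 to 1.62 and −2.54 to −2.08. The 2 T247 tests share the 2-cell arrays, and all 3 share the 2-cell control.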

How the results depend on the processing

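Of the comparisons of the brightest probe of each gene, Hdac1 with T247 at 2-cell fell short of the LFC of 1 under 75th percentile scaling (−0.82) and quantile normalization (−0.94). Under the same 2 scalings Hdac2 from GV to MII was 1.61 and 1.26, and Hdac3 reversed there to 1.01 with the 75th percentile against −0.45 as reported. With the 75th percentile, Hdac1 from morula to blastocyst was −1.15, Hdac3 0.93, and the MGCD0103 effect on Hdac8 from 1-cell to 2-cell 1.1. With quantile normalization Hdac3 was −1.13 (T247, 4-cell) and 0.72 (morula to blastocyst), Hdac2 1.05 and Hdac8 −0.89 (2-cell to 4-cell). With normexp background correction Hdac3 was 0.32, 0.39 and 0.93 for 2-cell to 4-cell, 4-cell to 8-cell and morula to blastocyst, and Hdac8 −0.66 for 2-cell to 4-cell. Hdac3 from 2-cell to 4-cell was 0.8 with non-significant spots missing; with only 6 arrays fitted it kept 1.23, Hdac3 from 4-cell to 8-cell 1.38 and Hdac8 from 2-cell to 4-cell −1.36, each no longer called. Hdac8 from morula to blastocyst was 1.03 without scaling, 1.03 with array weights and 1 in the authors' table, now called. Array weights, whose estimation stopped before convergence, also gave Hdac3 −1.08 (T247, 4-cell) and 1.14 (morula to blastocyst), Hdac8 1.25 (MGCD0103, 2-cell) and −0.77 (2-cell to 4-cell), and changes of effect of 0.32 and 0.85 (Hdac2 and Hdac8, T247, 1-cell to 2-cell), −0.38 and −0.59 (T247, 2-cell to 4-cell, the latter reversed from 0.32) and 0.33 and 1.29 (MGCD0103). The cause was not tested.

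With 1 array left out, calls of the brightest probes changed in the ranges 0.27 to 1.3 (Hdac8, MGCD0103, 2-cell), −1.22 to −0.37 (Hdac3, T247, 4-cell), 0.8 to 1.67 and −1.73 to −0.69 (Hdac3 and Hdac8, 2-cell to 4-cell), 0.95 to 1.8 (Hdac3, 4-cell to 8-cell), 0.61 to 1.02 and 0.86 to 1.07 (Hdac8, to morula and blastocyst). Without control 2-cell replicate 1, changes of effect, which were called on the adjusted p alone, were called for Hdac2 (T247 −0.23 to 0.43 and −0.64 to 0.01, MGCD0103 −0.21 to 0.44) and Hdac8 (T247 −0.09 to 0.94, MGCD0103 0.38 to 1.41). Among the other probes the ranges were 0.9 to 1.33 (Hdac1 probe 1732, 2-cell to 4-cell) and, for Hdac8 probe 108, −1.05 to −0.38 (T247, 2-cell), −1.1 to −0.43 (2-cell to 4-cell), −1.5 to −0.09 (8-cell to morula) and 0.84 to 2.25 (morula to blastocyst).

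Same-numbered untreated arrays shared a slide and deviated together weakly (r from 0.022 to 0.29 against −0.212 to 0.0794 for different numbers), while same-numbered treated and control arrays at 2-cell ranged from −0.13 to −0.0525 with T247 and from 0.00586 to 0.129 with MGCD0103. Since not every pair exceeded 0.1, numbers were not used as pairs. With the replicate block Hdac1 probe 1885 at 2-cell kept −1.27 (adjusted p = 2.83e-06, limma) and −1.9 (adjusted p = 3.99e-09), and no member call changed. The probes called at 2-cell numbered 7099 with T247 and 7742 with MGCD0103, and 3789 and 4348 with normexp, 4659 and 4942 with a filter on signals well above background and 4609 and 4861 in the authors' table. Between the inhibitors at 2-cell they numbered 1373, 380 with normexp and 2404 with the loosest filter. Hdac8 probe 108, at 1 between the inhibitors at 2-cell, was called in 4 alternatives (adjusted p 0.00184 to 0.048, limma). The partner list settings were added after the data were seen. Hdac3 was well above background on 26 of 39 arrays, which limits its 2-cell and 4-cell values.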
